A study of Mus musculus with 2 samples.

Results

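The insulin-like growth factor (IGF) system was followed through 9 genes of the 55450 that were counted: the ligands Igf1 and Igf2, the receptors Igf1r and Igf2r, and the binding proteins Igfbp2, Igfbp3, Igfbp4, Igfbp5 and Igfbp7. They were taken by gene symbol, and no measured value entered the rule, but the list was chosen with earlier results of these data known. The data were 2 10x Genomics scRNA-seq libraries of cerebral cortex from C57BL/6 mice, 1 from control animals and 1 from animals with cerebral white matter injury (WMI). The age of the mice was labelled as 2 weeks. The labels give both libraries 1 treatment text, in which the right common carotid artery was tied on postnatal day 7 with 1 h of hypoxia, and do not say what was done to control animals. By the labels, cortex was taken on postnatal day 14, from the tied side in the WMI group and the same side in the control group. The labels speak of nuclei, whereas the methods of the study describe an earlier operation, a longer hypoxia, trypsin-dissociated cells and several replicates per group. The study also gives a younger age at sampling and speaks of control and WMI sides of the cortex. Neither account was assumed here. Cortex was sampled as a whole, so that the libraries are not limited to white matter, and the labels do not say how many of the animals or replicates that the study describes are in each library. With 1 library per group, no difference below has a replicate check and no p-value is given.

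IGF1 and IGF2 are secreted growth factors that activate the receptor tyrosine kinase IGF1R, which signals through insulin receptor substrates to PI3K and Akt. IGF2R, the cation-independent mannose-6-phosphate receptor, binds IGF2 and carries it to lysosomes, and the binding proteins hold IGFs outside the cell until proteases release them. In the postnatal brain, IGF1 is known as a survival and growth factor for neurons and oligodendrocyte-lineage cells.

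Levels are CPM (counts-per-million, the UMIs of a gene scaled by all UMIs of the cells of a class), where a UMI (unique molecular identifier) stands for a captured transcript molecule, with exact 95% Poisson intervals. Ratios are WMI over control with an exact conditional 95% interval. All intervals cover counting error only. After filtering and removal of predicted doublets, 8755 control cells (median 4316 UMIs) and 7571 WMI cells (median 5031 UMIs) remained, and 26 cell barcodes occurred in both libraries. Cell classes were named from marker genes and are written with "-like". The 11 classes with at least 50 cells in each library were compared. Several limits touched all of them. Xist, the RNA of the inactive X chromosome, was found in 1936 of 2920 WMI and 2 of 6568 control excitatory neuron-like cells, so the WMI library held cells of both sexes and the control library almost only male cells. A pair of excitatory clusters with 2320 and 1186 control cells held only 172 and 9 WMI cells, and the myeloid-like class held 616 WMI and 5 control cells. A striatal neuron-like class, with Rarb, Penk and Adora2a among its leading genes, held 142 WMI and 3 control cells. Neuroblast-like cells numbered 187 in WMI and 63 in control. The 2 libraries may thus differ in the tissue they hold, and the part of this in the ratios below was not tested. Median mitochondrial content was 0.0614% of UMIs in control and 0.448% in WMI cells.

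The main source of Igf1 transcripts differed between the libraries. In the control library, the Lhx6, Sst and Adarb2 interneuron-like classes together held 555 of 1043 Igf1 UMIs, which is 53.2% (50.1 to 56.3) from 5.45% of the cells. Excitatory neuron-like cells held 35.7% from 75.0% of the cells. The microglia-like, cycling microglia-like and myeloid-like classes held 3.36% (2.35 to 4.64) in 5.06% of the control cells. In the WMI library the same myeloid classes held 2138 of 3970 Igf1 UMIs, which is 53.9% (52.3 to 55.4) in 23.5% of the cells, and the 3 interneuron-like classes held 18.2% (17.0 to 19.4) in 5.10% of the cells. Fibroblast-like cells were a minor source, with 1.15% of the control and 0.705% of the WMI Igf1 UMIs. Over all kept cells, Igf1 stood at 18.3 CPM in the control and 73.6 CPM in the WMI library.

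**Figure D1:**
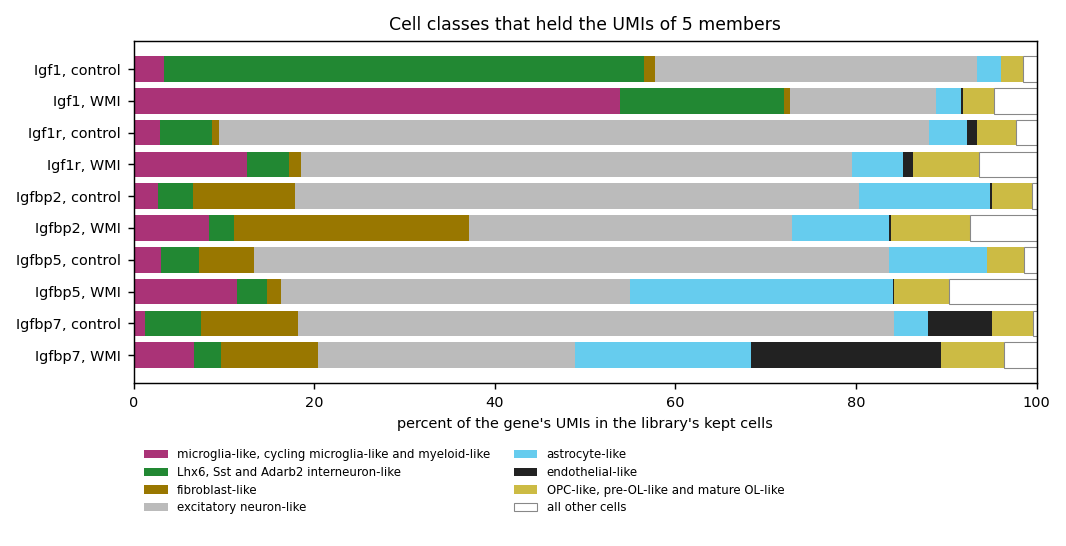
Percent of each gene's UMIs in the kept cells of a library (x axis) that lay in each group of cell classes (colours), for 5 members in the control and WMI libraries (y axis). The myeloid classes held 3.36% of the Igf1 UMIs in control and 53.9% in WMI, and astrocyte-like cells held 10.8% and 29.1% of the Igfbp5 UMIs.

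Microglia-like cells, the resident macrophages of the brain, had the widest gap. Igf1 was counted 34 times in 429 control cells (24.4 CPM, 16.9 to 34.0) and 1914 times in 1135 WMI cells (483 CPM, 461 to 505). The WMI level was 19.8-fold the control level (14.1 to 28.7), whereas 9.88% of the 10610 genes with at least 50 UMIs in this class were 2-fold apart or more in either direction. After each cell was thinned to 1000 UMIs, which left out no cell, 1.63% (0.658 to 3.33) of control and 23.8% (21.3 to 26.4) of WMI microglia-like cells had an Igf1 UMI. Excitatory neuron-like cells, in which Igf1 is not a defining gene, had 1.37% and 2.74% at the same depth, and the control interval of microglia-like cells held the excitatory share. By level, control microglia-like cells stood above control excitatory neuron-like cells as a whole, with 24.4 CPM against 8.49 CPM (7.65 to 9.40) and intervals that did not overlap. The excitatory cluster with 2320 control cells, however, stood at 23.1 CPM in control, within the microglia-like interval. Before thinning, the shares were 6.53% and 43.1% in microglia-like cells (median 3092 and 3123 UMIs) and 4.98% and 19% in excitatory neuron-like cells (median 3602 and 9453 UMIs). The Igf1 UMIs were unevenly spread over WMI cells. A single WMI microglia-like cell held 173 of them, 39 cells held 10 or more, and the tenth of the cells with most held 65.1%.

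The WMI microglia-like class was itself of mixed make-up, and a finer clustering (resolution 1.6 in place of 0.8) divided it. A finer microglia-like cluster led by genes such as Siglech, which marks microglia, held 412 control and 711 WMI cells, and Igf1 stood there at 20.4 CPM (13.4 to 29.6) and 166 CPM (149 to 183), a ratio of 8.14 (5.50 to 12.5), against 5.79% of genes past 2-fold. A finer myeloid-like cluster held 17 control and 420 WMI cells. Its leading genes included Apobec1, Ddx60, Plin2, a lipid droplet coat protein, Gpnmb, a gene of activated phagocytes, and Mrc1, a marker of perivascular macrophages. In this cluster, 7 Igf1 UMIs were counted in control (101 CPM, 40.5 to 208) and 1537 in WMI (905 CPM, 860 to 951), which was 38.7% of all WMI Igf1 UMIs. At a depth of 1000 UMIs, 40.7% (36.0 to 45.6) of these WMI cells had an Igf1 UMI against 13.8% (11.3 to 16.5) in the Siglech-led cluster. The markers of lipid-laden activated myeloid cells summed to 40.8 CPM in control and 1119 CPM in WMI microglia-like cells, with 4 and 8 of 8 markers found. Markers of perivascular macrophages summed to 178 and 406 CPM in the same cells, with 5 and 7 of 7 markers found. The separate myeloid-like class of the main clustering, led by Spp1, Ftl1, Ctsd and C1qa, stood lower, at 137 CPM (117 to 161) in 616 WMI cells, with no Igf1 UMI in its 5 control cells. Those WMI cells were shallow, with a median of 1752.5 UMIs. In them 10 myeloid markers summed to 1504 CPM and 9 astrocyte markers to 1146 CPM, against 3110 and 595 CPM in WMI microglia-like cells. The part of RNA from other cells in this lower Igf1 level was not tested. Cycling microglia-like cells of the WMI library had 486 CPM (375 to 620) from 30 cells.

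Among neurons, Igf1 was highest in Adarb2 interneuron-like cells, a GABAergic class whose cluster also carried Vip. They had 371 Igf1 UMIs in 143 control cells (284 CPM, 256 to 314) and 547 in 167 WMI cells (350.1 CPM, 321 to 381). The ratio was 1.23 (1.08 to 1.41), and 2.74% of the genes counted in this class were past 2-fold. At full depth (median 8722 and 8481 UMIs), Igf1 UMIs were seen in 104 of 143 control and 130 of 167 WMI cells, and the highest cell held 19 and 26 UMIs. At 1000 UMIs per cell the shares were 17.5% (11.6 to 24.7) in control and 27.5% (20.9 to 35) in WMI, and the WMI interval overlapped that of WMI microglia-like cells. At the finer clustering, the part with Vip among its leading genes had 362 CPM (321 to 405) and 409 CPM (371 to 449), and an inhibitory neuron-like part led by Pde11a, Myo3b, Sv2c and Reln had 156 CPM (123 to 195) and 220.2 CPM (180.5 to 266). Sst interneuron-like cells, which make somatostatin, came next with 95.4 CPM (79.0 to 114) in control and 132 CPM (109 to 159) in WMI, a log2 ratio of 0.47 that was -0.08 among male cells. Lhx6 interneuron-like cells, a class of medial ganglionic eminence origin, stood at 28.6 CPM (22.1 to 36.5) and 48.9 CPM (37.5 to 62.6). Of the genes counted, 2.92% in Sst and 2.59% in Lhx6 interneuron-like cells were past 2-fold, and Igf1 was past it in neither. The order Adarb2, Sst, Lhx6 held in both libraries with intervals that did not overlap.

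Outside microglia-like cells and interneurons, 4 classes had at least 50 Igf1 UMIs, and Igf1 was higher in the WMI library in each. Excitatory neuron-like cells had 8.49 CPM (7.65 to 9.40) in control and 19.5 CPM (18 to 21) in WMI, and 6.12% of genes were past 2-fold in this class. The log2 ratio of 1.20 was 0.95 with cells weighted equally. All 11 excitatory clusters with at least 50 cells in each library had the higher Igf1 level in WMI, with log2 ratios from 0.98 to 2.49. The cluster with 2320 control and 172 WMI cells held 160 of the 372 control Igf1 UMIs of the class, at 23.1 CPM in control. The class ratio thus also reflects this cluster's larger share of the control cells. OPC-like cells (oligodendrocyte precursors) had 6.70 CPM (3.35 to 12) and 32.4 CPM (25.3 to 40.8), with 2.93% of genes past 2-fold. Pre-OL-like cells, the premyelinating stage, had 6.76 CPM (2.48 to 14.7) and 25.1 CPM (19 to 32.6), with 4.36% past 2-fold, and their log2 ratio of 1.89 was 0.75 with predicted doublets kept. Astrocyte-like cells had 11.2 CPM (7.44 to 16.2) and 36.3 CPM (29.9 to 43.7). Igf1 was past 2-fold in these 4 classes. Neuroblast-like, mature OL-like and fibroblast-like cells had fewer than 50 Igf1 UMIs, and the intervals of their ratios held 1, with 2.17 (0.951 to 5.77), 1.56 (0.416 to 5.82) and 1.80 (0.886 to 3.88). After thinning to 1000 UMIs, an Igf1 UMI was found in 0.813% of control and 5.02% of WMI astrocyte-like cells, in 0 of 308 control (up to 1.19%) and 3.40% of WMI OPC-like cells, and in 1.33% and 1.43% of pre-OL-like cells, so that no difference was detectable in the last at this depth. The summed level of 10 myeloid markers moved the same way in each of the 4 classes past 2-fold: from 76.9 to 221 CPM in excitatory neuron-like, 82.3 to 412 CPM in OPC-like, 83.4 to 388 CPM in pre-OL-like and 88.8 to 392 CPM in astrocyte-like cells. At least 9 of the 10 markers had UMIs in each of these classes in each library. The sum was also higher in WMI in every other compared class, including those where Igf1 was not past 2-fold. It went from 55.1 to 249 CPM in Lhx6 and from 62.5 to 248 CPM in Sst interneuron-like cells. The part of free myeloid RNA in the Igf1 counts was not tested in any class. In Adarb2 interneuron-like cells the same markers summed to 46.7 and 227 CPM, lower than in astrocyte-like cells of the same library, beside a higher Igf1 level.

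**Figure D2:**
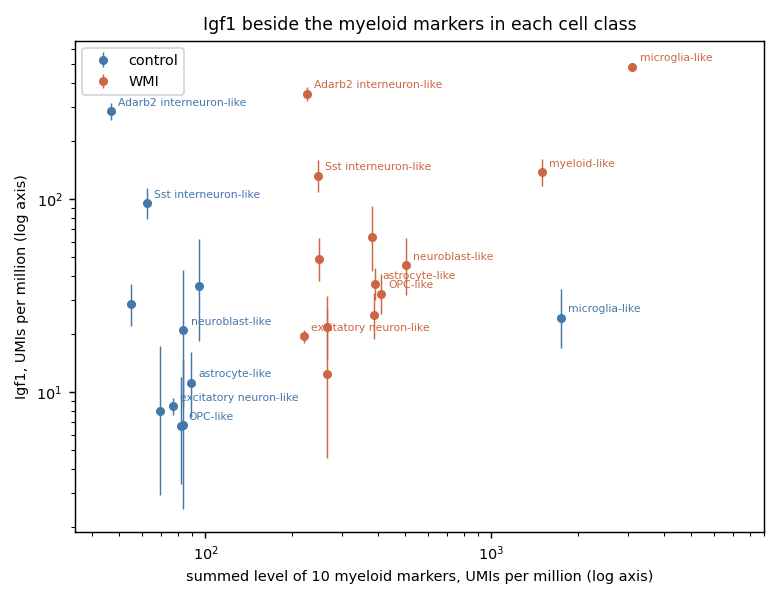
Igf1 level (y axis, CPM, log scale, bars are 95% Poisson intervals) against the summed level of 10 myeloid markers (x axis, CPM, log scale) in each cell class with at least 50 cells in the library, coloured by library. Each class shown for both libraries lies further right in WMI than in control, and Adarb2 and Sst interneuron-like cells lie above the other neurons in both libraries.

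Igf2 was too sparse to be compared. Only 4 UMIs were counted in the control and 3 in the WMI library, of which 2 lay in fibroblast-like cells, 2 in astrocyte-like, 2 in excitatory neuron-like and 1 in neuroblast-like cells. The gene lies at chr7:142650766-142666816 on the minus strand (GRCm38, GENCODE M21) and is overlapped on the same strand by another gene model, Gm49394, which had 0 UMIs in both libraries. How reads in the overlap were counted was not tested, so that a low level of Igf2 and lost reads cannot be told apart. H19, the imprinted neighbour of Igf2, had 11 and 6 UMIs.

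Igf1r transcripts, in contrast to those of the ligand, were found in every class and differed little between the libraries. Over all kept cells Igf1r stood at 298 CPM in control and 309.5 CPM in WMI. Endothelial-like cells, which line vessels, were the highest, with 185 UMIs in 24 control cells (2035 CPM, 1752 to 2350) and 182 in 18 WMI cells (1895 CPM, 1630 to 2191). Every endothelial-like cell of both libraries carried at least 1 Igf1r UMI. Those cells were too few to be compared between libraries. Neuroblast-like cells, the immature neurons, followed with 945 CPM (843 to 1055) in 63 control and 642 CPM (588 to 701) in 187 WMI cells. Mature OL-like cells, the myelinating oligodendrocytes, were lowest among the 11 classes, with 100.1 CPM (78.7 to 126) and 122 CPM (93.2 to 158).

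Between the libraries, Igf1r was within 2-fold in all 11 classes. The log2 ratio was 0.02 (-0.02 to 0.06) in excitatory neuron-like cells. These cells held 78.7% of the control and 60.9% of the WMI Igf1r UMIs, near their 76.9% and 61.1% of all UMIs. The Igf1r log2 ratio was 0.28 (0.14 to 0.43) in microglia-like cells and 0.40 (0.10 to 0.71) in fibroblast-like cells. In the finer microglia-like cluster led by genes such as Siglech, the Igf1r log2 ratio was 0.12 (-0.04 to 0.29), an interval that held 0. In neuroblast-like cells it was -0.56 (-0.76 to -0.35), the only class whose interval lay below 0, and 1 control cell held 35 of the 316 control UMIs. At the finer clustering the neuroblast-like cluster held 63 control but only 127 WMI cells, and its log2 ratio was -0.33 (-0.55 to -0.11). Along the oligodendrocyte lineage, the log2 ratios were 0.18 (-0.00 to 0.36) in OPC-like, -0.17 (-0.40 to 0.07) in pre-OL-like and 0.29 (-0.23 to 0.80) in mature OL-like cells, each with an interval that held 0. Within excitatory neuron-like cells, Igf1r varied between clusters more than between libraries, from 180 to 433 CPM in control and from 189 to 435 CPM in WMI.

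**Figure D3:**
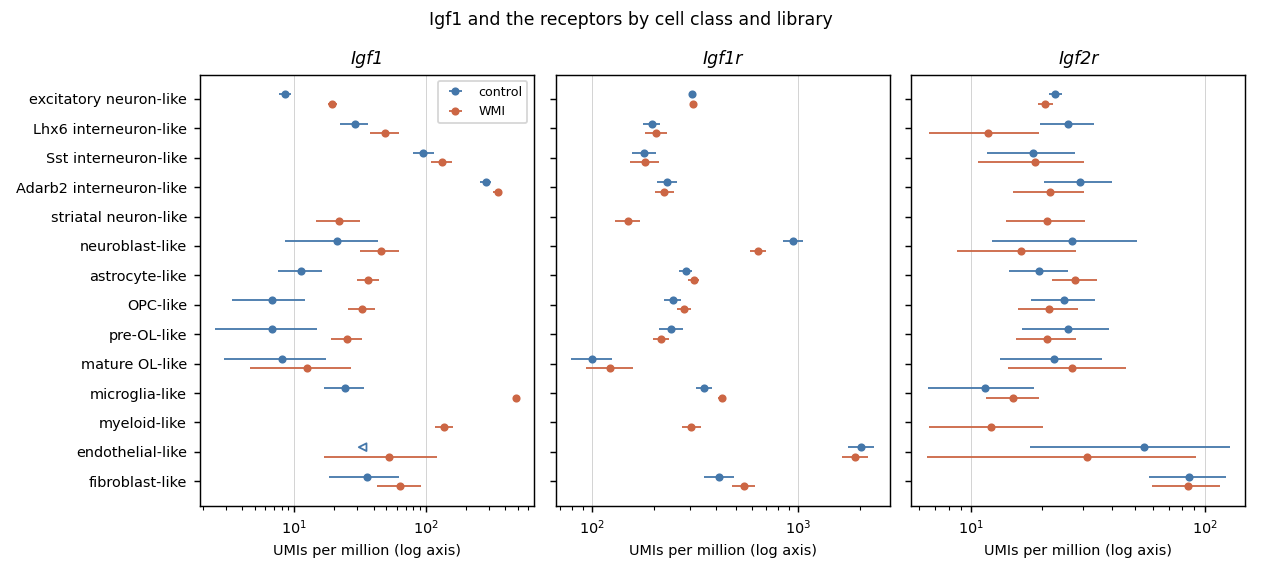
Levels of Igf1, Igf1r and Igf2r (x axes, CPM, log scale) in 14 cell classes (y axis) of the control and WMI libraries. Points are levels, bars are 95% Poisson intervals, open triangles mark the limit that 0 counts allows (3 counts), and classes with fewer than 15 cells in a library are left out. Igf1 reaches 483 in WMI microglia-like cells against 24.4 in control, while the Igf1r points of both libraries lie close together in most classes and are highest in endothelial-like cells.

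Igf2r was led by fibroblast-like cells, with 85.7 CPM (57.4 to 123) in control and 84.3 CPM (59.4 to 116) in WMI, a log2 ratio of -0.02 (-0.76 to 0.73). In the other compared classes its level lay between 11.5 and 29.1 CPM in control and between 11.8 and 27.8 CPM in WMI. The 1 class past 2-fold was Lhx6 interneuron-like, with 59 UMIs in control (26.0 CPM, 19.8 to 33.5) and 15 in WMI (11.8 CPM, 6.62 to 19.5). There the log2 ratio was -1.14 (-2.06 to -0.30), and it was -0.48 when only male cells were used and -0.81 with predicted doublets kept. Igf2r overlaps Airn, a long non-coding RNA from the opposite strand, which had 4422 and 4885 UMIs, and whether the counting used strand was not given in the sources used here.

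Astrocyte-like cells had 3 members past 2-fold out of 7 counted, all higher in WMI, where 7.22% of all counted genes were past 2-fold in either direction and 5.78% were past it upward. Igfbp5, which binds IGFs and attaches to matrix, was counted 106 times in 492 control cells (42.4 CPM, 34.7 to 51.3) and 603 times in 578 WMI cells (197 CPM, 182 to 214), a ratio of 4.65 (3.78 to 5.77). Igfbp7, a low-affinity relative known from vessels, was counted 9 times in control (3.60 CPM, 1.65 to 6.83) and 81 times in WMI (26.5 CPM, 21 to 32.9), a ratio of 7.36 (3.69 to 16.7). Igf1 was the third. The thinned share of cells with an Igfbp5 UMI was 4.67% (2.99 to 6.93) in control and 18.5% (15.4 to 21.9) in WMI astrocyte-like cells, against 1.96% and 2.50% in excitatory neuron-like cells. Igfbp2 was not past 2-fold, with 25.6 CPM (19.7 to 32.7) and 18 CPM (13.5 to 23.4).

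The finer clustering divided astrocyte-like cells into a cluster led by Nhsl1, Gli3 and Slco1c1 with 404 control and 326 WMI cells, and one led by A2m and Gfap, the glial filament gene, with 88 control and 252 WMI cells. Igfbp5 was higher in WMI within each. It stood at 23.3 and 81.7 CPM in the first (ratio 3.5, 2.52 to 4.95) and at 143 and 357 CPM in the A2m-led cluster (ratio 2.50, 1.9 to 3.35). Of the counted genes, 4.41% in the first and 9.86% in the second cluster were past 2-fold. Igfbp7 in the A2m-led cluster stood at 15 and 50.7 CPM (ratio 3.37, 1.47 to 9.52). The whole-class ratio therefore joins a higher level within each cluster with a larger share of A2m-led cells in the WMI library.

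The promoters of Igfbp5 and Igfbp7, the binding proteins past 2-fold in astrocyte-like cells, are shown from RefSeq (GRCm38.p6), 5′ to 3′ on the strand of the gene, with GC boxes (GGGCGG on either strand) in capitals. The Igfbp7 window, chr5:77408046-77408295 on the minus strand, holds the 250 bases before the annotated start, and the Igfbp5 window, chr1:72874885-72875115 on the minus strand, holds 231 of these bases, without 19 that GENCODE M21 places in the first exon.
Igfbp5: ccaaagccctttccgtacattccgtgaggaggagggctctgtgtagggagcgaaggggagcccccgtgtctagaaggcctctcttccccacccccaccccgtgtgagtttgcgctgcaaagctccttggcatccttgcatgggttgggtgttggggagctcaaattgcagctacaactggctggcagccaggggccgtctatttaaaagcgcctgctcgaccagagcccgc
Igfbp7: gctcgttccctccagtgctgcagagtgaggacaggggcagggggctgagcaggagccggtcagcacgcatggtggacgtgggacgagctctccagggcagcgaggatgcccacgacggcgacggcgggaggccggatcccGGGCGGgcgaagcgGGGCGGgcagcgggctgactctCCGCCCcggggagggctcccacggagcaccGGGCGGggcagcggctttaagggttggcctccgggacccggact
Igfbp7 held 4 GC boxes, and 32.7% of all 32851 RefSeq windows of 250 bases held at least 1. A TATA box (TATAAA, in 12.4% of windows), an AP-1 site (TGACTCA, 4.46%), an ETS site (AGGAAGT, 7.69%) and an E-box (CACGTG, 6.02%), each sought on both strands, were not found in either. Only these exact letters were sought, so that variants of these sites were not counted. G and C made up 58.8% of the whole Igfbp5 and 74.0% of the Igfbp7 window, against a median of 52.4% over all windows. The RefSeq window of Igf1 (chr10:87860861-87861110, plus strand) lay wholly inside exons of the GENCODE M21 gene model and is not shown. The libraries measure transcripts and hold no signal at these sites.

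Igfbp5 was also higher in WMI in some classes outside astrocytes. In neuroblast-like cells it had 10 control UMIs (29.9 CPM, 14.3 to 55.0) and 76 WMI UMIs (95.7 CPM, 75.4 to 120), a ratio of 3.20 (1.65 to 6.95), where 6.6% of genes were past 2-fold. OPC-like cells had 11.6 CPM (6.97 to 18.1) and 30.6 CPM (23.7 to 38.8), a ratio of 2.64 (1.57 to 4.65). In pre-OL-like cells (12 and 47 UMIs) the log2 ratio was 0.64 (-0.30 to 1.69). In Adarb2 interneuron-like cells (23 and 31 UMIs) it was 0.17 (-0.65 to 1.02), and both intervals held 0. The part of free RNA in the Igfbp5 counts was not tested in any class. Excitatory neuron-like cells had 15.7 CPM (14.6 to 17.0) and 24.2 CPM (22.6 to 26.0), a log2 ratio of 0.62 (0.47 to 0.77), and microglia-like cells had 20.1 CPM and 39.4 CPM, a log2 ratio of 0.97 (0.39 to 1.61). In fibroblast-like cells the direction was the opposite, with 177 CPM (135 to 228) in control and 75.2 CPM (51.8 to 106) in WMI, a log2 ratio of -1.24 (-1.9 to -0.60). Most of these UMIs came from the smaller of 2 fibroblast-like clusters, led by Bnc2, Slc47a1 and Tbx15, where 52 UMIs were counted in 20 control cells and 17 in 14 WMI cells. The larger one had 39.8 and 46.9 CPM. Part of the class ratio thus lay in the smaller cluster's share of the class, and with both clusters weighted equally the log2 ratio was -0.92.

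Fibroblast-like cells, the cells of the meninges and vessel walls, were the leading class for Igfbp2 and, among the compared classes, for Igfbp7. The class also held transcripts of mural cells, the pericytes and smooth muscle of vessels. Their list summed to 399 CPM in control (8 of 9 markers found) and 813 CPM in WMI (6 of 9). The list of endothelial markers summed to 163 CPM in control (7 of 9 found) and 296 CPM in WMI (8 of 9). The part of mural and endothelial cells in the values below, and in the Igf1r values of this class above, was not tested. Of all counted genes in the class, 4.72% were past 2-fold. Igfbp2, a binding protein with preference for IGF2, was counted 50 times in 58 control cells (148 CPM, 110 to 195) and 134 times in 84 WMI cells (305 CPM, 256 to 362), a ratio of 2.07 (1.48 to 2.92). The Igfbp2 log2 ratio of 1.05 became 0.48 among male cells, 0.52 after thinning and 0.92 with predicted doublets kept, below 2-fold in each. The class held 11.3% of the control and 26.1% of the WMI Igfbp2 UMIs from 0.662% and 1.11% of the cells. Igfbp7 stood there at 76.8 CPM (50.2 to 113) and 103 CPM (74.8 to 137).

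Igfbp7 was highest in endothelial-like cells. There, 17 UMIs lay in 10 of 24 control cells (187 CPM, 109 to 299) and 87 UMIs in 13 of 18 WMI cells (906 CPM, 726 to 1118), and 1 WMI cell held 28. Endothelial-like cells held 7.05% of the control and 21% of the WMI Igfbp7 UMIs. All 9 endothelial markers were found in both libraries. In excitatory neuron-like cells Igfbp7 was 3.63 and 3.58 CPM.

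Igfbp4, a binding protein that restrains IGF action and is cut by pregnancy-associated plasma proteins, varied less between classes. Among classes with at least 50 Igfbp4 UMIs over both libraries, microglia-like cells were highest, with 25.1 CPM (17.5 to 34.9) in control and 28.0 CPM (23.0 to 33.7) in WMI, a log2 ratio of 0.16 (-0.40 to 0.75). Fibroblast-like cells, with 6 and 16 UMIs, stood at 17.7 CPM (6.51 to 38.6) and 36.5 CPM (20.8 to 59.2), and these intervals overlapped those of microglia-like cells. Excitatory neuron-like cells had 17.8 CPM (16.6 to 19.1) and 15 CPM (13.7 to 16.3), a log2 ratio of -0.25 (-0.42 to -0.09). That sign turned to 0.10 without the clusters at least 90% from 1 library and to 0.19 with excitatory clusters weighted equally, and one such cluster, with 1186 control and 9 WMI cells, stood at 54.2 CPM in control. Igfbp3 was sparse, with 70 and 116 UMIs, and reached 50 UMIs only in excitatory neuron-like cells, at 1.03 CPM (0.749 to 1.37) and 1.91 CPM (1.47 to 2.45). Of the 63 WMI UMIs in this class, 23 lay in 1 cluster with 147 control and 583 WMI cells, which had 0 control UMIs. Igfbp3 was higher in WMI in 8 of the 11 compared excitatory clusters, but only in this 1 did the log2 interval lie above 0.

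**Figure D4:**
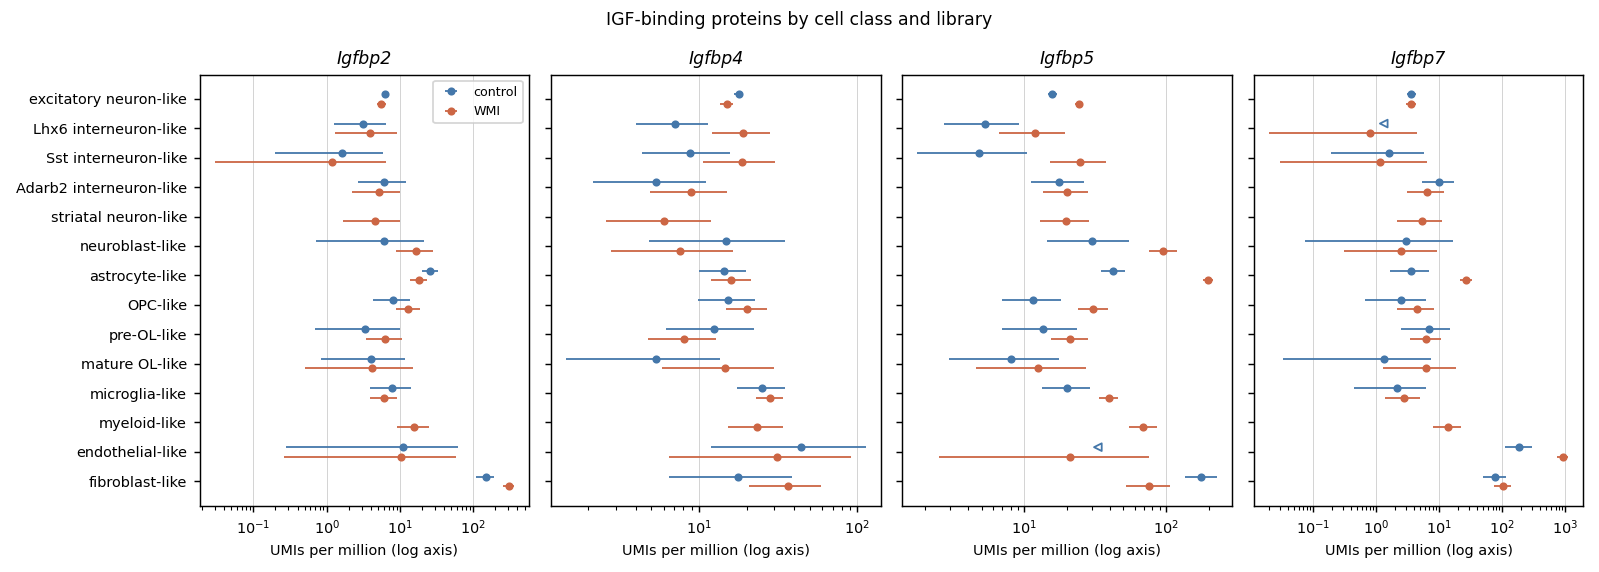
Levels of Igfbp2, Igfbp4, Igfbp5 and Igfbp7 (x axes, CPM, log scale) in 14 cell classes (y axis) of the control and WMI libraries, with 95% Poisson intervals as bars and open triangles at the limit that 0 counts allows (3 counts); classes with fewer than 15 cells in a library are left out. Igfbp5 and Igfbp7 lie further right in WMI than in control astrocyte-like cells, and Igfbp2 is highest in fibroblast-like cells.

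Members with at least 50 UMIs in a class were counted, with the share of all counted genes past 2-fold in brackets. Past 2-fold were 1 of 8 in excitatory neuron-like (6.12%), 1 of 3 in Lhx6 (2.59%), 0 of 2 in Sst (2.92%) and 0 of 4 in Adarb2 interneuron-like cells (2.74%). The count was 1 of 2 in neuroblast-like (6.6%), 3 of 7 in astrocyte-like (7.22%), 2 of 5 in OPC-like (2.93%) and 1 of 4 in pre-OL-like cells (4.36%). It was 0 of 1 in mature OL-like (5.9%), 1 of 5 in microglia-like (9.88%) and 2 of 5 in fibroblast-like cells (4.72%). With 1 to 8 members counted in a class, these counts are a description. The median log2 ratio of all counted genes lay between -0.07 and 0.11 in the 11 classes.

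**Figure D5:**
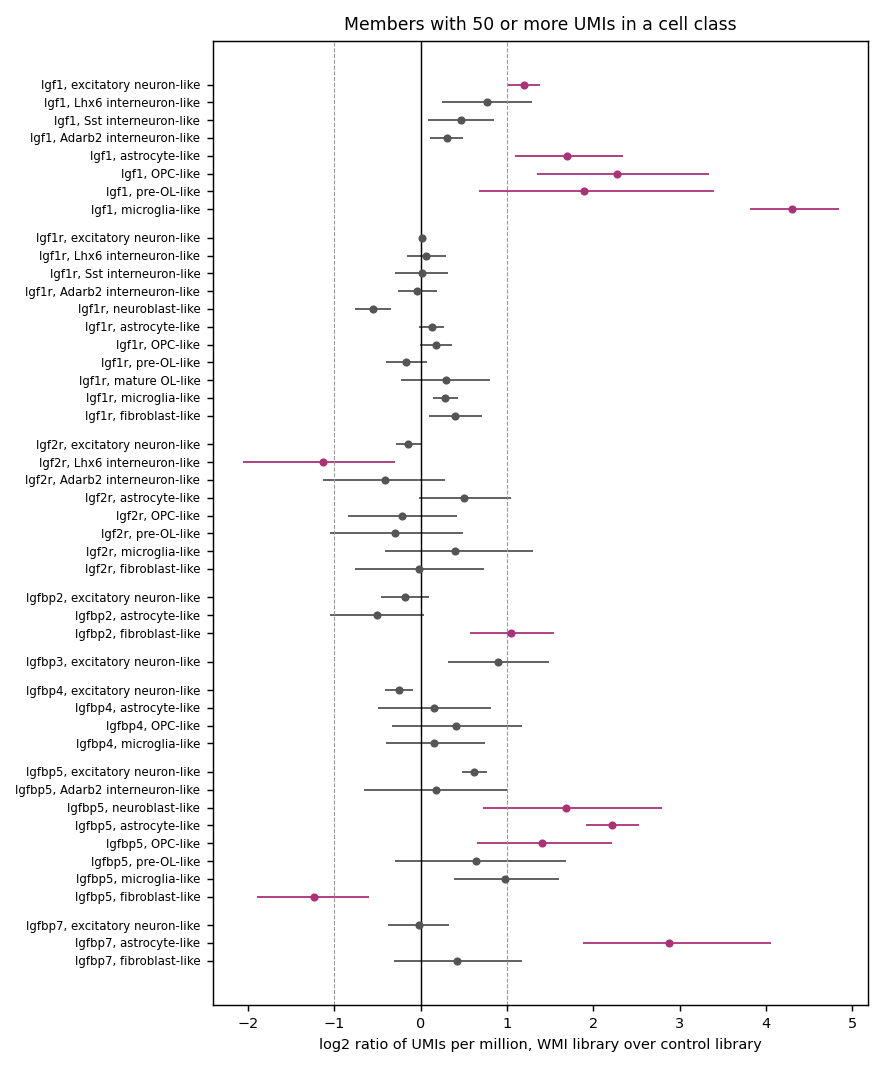
Log2 ratio of CPM, WMI over control (x axis), for each member and cell class with at least 50 UMIs over both libraries (y axis). Points are ratios, bars are exact 95% intervals, dashed lines mark 2-fold, and points at 2-fold or more are purple. Igf1 in microglia-like cells lies farthest right at 4.31, and Igf1r lies within the dashed lines in all 11 classes.

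The genes around the IGF members were described by a list of 44 genes. In the 11 classes, between 14 and 37 of them had at least 50 UMIs, and 0 to 4 were past 2-fold in a class. These were 3 of 37 in excitatory neuron-like cells (6.12% of all genes), 1 of 17 in neuroblast-like (6.6%), 3 of 31 in astrocyte-like (7.22%), 1 of 28 in OPC-like (2.93%), 4 of 30 in microglia-like (9.88%) and 1 of 17 in fibroblast-like cells (4.72%). These shares lie near those of all genes, so that the names below are a description and no result about the list. Among the proteases and binding proteins outside the members, Pappa was past 2-fold in astrocyte-like cells. Pappa, a secreted protease that cuts IGFBP4 and IGFBP5, had 17 UMIs in control (6.8 CPM) and 128 in WMI (41.9 CPM), a log2 ratio of 2.62 (1.89 to 3.45). Htra1, a secreted serine protease, went the other way, from 422 to 153 CPM in astrocyte-like cells (log2 ratio -1.46, -1.62 to -1.31), from 45.7 to 16.2 CPM in OPC-like cells (-1.5, -2.11 to -0.91) and from 18.3 to 5.16 CPM in excitatory neuron-like cells (-1.82, -2.07 to -1.58). In excitatory neuron-like cells Igfbp6 was lower in WMI, with 1.67 and 0.698 CPM, and Igfbpl1, a gene of immature neurons, was higher, with 1.85 and 3.79 CPM.

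Of the receptors and adaptors, Insr, the insulin receptor, was within 2-fold in all 11 classes, with log2 ratios from -0.44 (-0.99 to 0.09) in mature OL-like to 0.38 (0.04 to 0.74) in pre-OL-like cells. Irs1, a substrate of both receptors, was highest in pre-OL-like cells (172 and 206 CPM) and fibroblast-like cells (198 and 146 CPM), and its log2 ratio in astrocyte-like cells was 0.76 (0.45 to 1.08). Grb10, an imprinted adaptor that restrains both receptors, was highest in fibroblast-like cells (425 and 383 CPM). Irs2 was past 2-fold in no class in which it had 50 UMIs. Past 2-fold were Shc1 in microglia-like cells, an adaptor to Ras (3.58 and 11.6 CPM), and Grb14 in neuroblast-like cells, a relative of Grb10 (29.9 and 61.7 CPM).

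Of the 18 genes of PI3K, Akt, mTOR and FoxO, 3 were past 2-fold in a class, which was 1 of 17 counted in microglia-like, 1 of 18 in astrocyte-like and 1 of 11 in fibroblast-like cells, near the 9.88%, 7.22% and 4.72% of all genes. Pik3cb, a catalytic subunit of PI3K, stood at 63.0 and 128 CPM in microglia-like cells (log2 ratio 1.03, 0.70 to 1.37). Pik3r3, a regulatory subunit, stood at 6.8 and 15 CPM in astrocyte-like cells, and Foxo1, a transcription factor held out of the nucleus by Akt, at 91.6 and 187 CPM in fibroblast-like cells. Of the Igf2 mRNA-binding proteins, Igf2bp3 (48.0 and 103 CPM, log2 ratio 1.10, 0.72 to 1.5) and Igf2bp2 (7.16 and 15.9 CPM) were past 2-fold in microglia-like cells.

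Genes whose level followed a member most closely were sought among 15405 genes over 24 points, each a cell class in 1 library, as Pearson's r of log2(CPM + 1). The points share 2 libraries and their cell classes, and r is a description. For Igf1 these were Pck2 (r = 0.795), Maf (0.774) and 5033421B08Rik (0.762). For Igf1r they were Ubtd2 (0.880), Qser1 (0.877) and Abracl (0.861). Igf2r was followed by its antisense neighbour Airn (0.908), then Bicc1 (0.860) and Cgnl1 (0.858). The meningeal and matrix genes Ranbp3l (0.938) and Col1a2 (0.914) followed Igfbp2, the BMP target Id3 (0.899) followed Igfbp5, and Aebp1 (0.855) followed Igfbp7. Igfbp4 was followed most by Ndufb2 (0.794).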

How the data were processed

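Count matrices of UMIs per gene and cell barcode were deposited, 1 per library. Per the file headers the authors made them with Cell Ranger 6.1.1; the submitters' processing notes name Seurat and the build mm9, yet all 55450 gene identifiers matched GENCODE M21, an annotation of GRCm38. The control library held 66470806 UMIs in 10288 barcodes and the WMI library 60568639 in 8354.

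A barcode was kept as a cell with 1000 or more UMIs from 500 or more genes and no more than 10% of UMIs from mitochondrial genes, which 748 control and 241 WMI barcodes missed. Predicted doublets were removed (785 and 542), with a scorer that found 88.0% and 82.0% of artificial doublets. Cells were integrated and clustered with Seurat 5.3.0 in R 4.3.3 (30 dimensions, resolution 0.8), without the members and pathway genes among the clustering features. Of 31 clusters, 29 were named from marker lists, with thresholds chosen after looking at the clusters, so that these names are rebuilt and may differ from those of the study. UMIs were summed per class and library. A gene was counted in a class with at least 50 UMIs over both libraries, and a 2-fold ratio was a rule of size with no test. Poisson, Clopper-Pearson and conditional binomial intervals are exact at 95% and cover counting error only. Only the ratio and its interval were tested on simulated data, with counts modelled on the microglia-like class. Those counts were drawn as Poisson, which the interval itself assumes, so that the test cannot cover an uneven spread over cells.

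The members and lists were chosen with earlier results of these data known. All 9 members are named, and of the 44 pathway genes those past 2-fold in a class and Insr, Irs1, Irs2, Grb10 and Pappa; for likeness, up to 3 genes of highest r for each member with at least 200 UMIs. Alternatives covered doublets, depth, scaling, weighting, sex, resolution and integration.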

Additional observations from a re-analysis of the deposited data

How the results depend on the processing

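Of 46 ratios of a member in a class, all 46 stayed within the interval of the value reported when predicted doublets were kept, when cells under 2000 UMIs were left out, when mitochondrial UMIs were left out, and when libraries were merged without integration. The same held without the 26 shared barcodes and without the highest cell of each library, both chosen after seeing the data. Where intervals are wide, a ratio can stay inside and still cross 2-fold. With predicted doublets kept, this was so for Igf1 in pre-OL-like, Igf2r in Lhx6 interneuron-like and Igfbp2 in fibroblast-like cells. Without integration, microglia-like cells lay in a cluster of 1382 WMI and 36 control cells and another of 34 WMI and 393 control cells. These clusters had the same name and were summed for the ratio. The finer clusters described above came from the integrated data. At resolution 1.6 the log2 ratios in microglia-like cells were 3.02 for Igf1 and 0.12 for Igf1r, since a finer cluster was split off. The Igf1r ratio in neuroblast-like cells was -0.33 at that resolution. The neuroblast-like class then held 127 WMI cells in place of 187, with 63 control cells in both. A finer cluster of 60 WMI and 0 control cells, led by Tspan18, Prox1 and Igfbpl1, was named excitatory neuron-like. After thinning to 1000 UMIs, 21 of 45 ratios lay outside their interval, among them Igfbp2 at 0.52 and Igfbp7 at -0.31 in fibroblast-like cells, where thinning leaves few counts. Among male cells Igfbp2 in fibroblast-like cells was 0.48 and Igf1 in Sst interneuron-like cells turned to a log2 ratio of -0.082. Igfbp4 in excitatory neuron-like cells turned to 0.10 without clusters mostly of 1 library and to 0.19 with clusters weighted equally. In the first of these settings 4 other ratios left their interval and 3 stayed, and in the second 3 others left it and 9 stayed. With cells weighted equally, 5 ratios left their interval and 41 stayed. Among male cells 5 left it, 1 changed sign and 40 stayed. For these changes other than those at resolution 1.6 the cause was not tested. Igf1 in excitatory neuron-like cells ranged from 0.95 to 2.01 and so crossed 2-fold, as did Igf1 in pre-OL-like (0.32 to 2.25), Igf2r in Lhx6 interneuron-like (-2.26 to -0.48), and Igfbp2 (0.48 to 1.22) and Igfbp5 (-2.70 to -0.92) in fibroblast-like cells.

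With 200 UMIs as the minimum, the percent of genes past 2-fold was 3.10 in place of 6.12 in excitatory neuron-like, 0.836 in place of 2.59 in Lhx6, 1.12 in place of 2.92 in Sst and 1.37 in place of 2.74 in Adarb2 interneuron-like, 4.2 in place of 7.22 in astrocyte-like, 1.03 in place of 2.93 in OPC-like and 2.20 in place of 4.36 in pre-OL-like cells. No neuroblast-like class was found at resolution 0.4, and Igf1 in OPC-like cells gave no ratio after thinning. No paired analysis was possible because each group had 1 library.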
